A study of Mus musculus with 35 samples.

Results

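Ly6d, D17H6S56E-5, Mtmr11, Anxa2, Golm1, Tspan8 and Tmem54 are 7 mouse genes chosen by their array values, which were higher in liver tumors than in non-tumorous liver (NTL), for most of them in each of 3 models of liver cancer. They are 7 of the 18820 genes that have a probe set annotated to a single symbol, and each of the 7 has 1 such probe set. Because tumor and NTL arrays selected them, every tumor to NTL value of these genes is given as a description without a test. Only Ly6d, D17H6S56E-5 and Anxa2 were above NTL on every tumor array of all 3 models, so the 7 genes are described as markers of tumors in general only where the single arrays bear that out.

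Liver RNA was measured on 35 arrays, with 13 arrays of tumors, 13 of NTL and 9 of control livers. In the DEN model, mice were injected intraperitoneally with the carcinogen diethylnitrosamine at 10 mg per kg on day 15 of life and examined for tumors at 9 months, with 5 tumor, 5 NTL and 5 untreated control arrays labelled as matched for sex and age. In the LT model, tg1223 mice carry a liver-specific transgene for the cytokines lymphotoxin alpha and beta and were 12 months old, which gave 3 tumor and 5 NTL arrays. In the MYC model, TRE-MYC mice were crossed with LAP-tTA mice, in which a liver-specific promoter drives the transactivator, and doxycycline chow at 200 mg per kg was withdrawn at 8 weeks, which gave 5 tumor and 3 NTL arrays. The LT and MYC models share 4 control arrays from transgene-negative mice, labelled as matched for sex and age. Mouse names on the 3 MYC NTL arrays start with WT, although the labels call the mice MYC-overexpressing, so their genotype is unsettled here. Tumor and NTL arrays of a model share no mouse identifier, and DEN tumors 1 and 4, DEN tumors 3 and 5, and LT tumors 1 and 2 each share an identifier stem and so may come from 1 mouse.

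The genes encode proteins of several cell compartments. Ly6d is a small surface protein held by a lipid anchor, of the Ly6 and urokinase receptor family, and is known from keratinocytes and from lymphoid progenitors committed to the B cell line. Anxa2 encodes annexin A2, which binds membrane phospholipids when calcium rises, pairs with S100a10 and holds plasminogen and its activator at the cell surface. Mtmr11 belongs to the myotubularins, a family of phosphoinositide phosphatases, and is one of its members without catalytic activity. Golm1 encodes a Golgi membrane protein, also called GP73, that is released into blood and is used as a serum marker of hepatocellular carcinoma. Tspan8 is a tetraspanin, a membrane organiser with 4 spans known from gastrointestinal tumors and exosomes. Tmem54 encodes a predicted membrane protein, and D17H6S56E-5 is a protein-coding gene whose role is not described here.

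In the RefSeq annotation of assembly GRCm38.p6, all 7 are protein-coding genes on different chromosomes. Ly6d lies at chr15:74762056-74763567, D17H6S56E-5 at chr17:34996678-35000774, Mtmr11 at chr3:96161949-96171718 and Anxa2 at chr9:69453683-69491792. Golm1 lies at chr13:59634996-59675784, Tspan8 at chr10:115816817-115849893 and Tmem54 at chr4:129105529-129111626. The RefSeq promoter table held 6 of the 7 genes, all but Ly6d. The 250 bases before the transcript start of that table are printed for 4 of them, and this start can lie inside the span of the gene given above. They are Anxa2, Mtmr11 and D17H6S56E-5, whose levels were high in tumors of all 3 models on most arrays, and Tmem54, whose level was high in DEN tumors and low in LT and MYC tumors. Each is in the direction of its gene, and capitals mark matches to the motifs searched.
Anxa2, chr9:69453433-69453682, plus strand: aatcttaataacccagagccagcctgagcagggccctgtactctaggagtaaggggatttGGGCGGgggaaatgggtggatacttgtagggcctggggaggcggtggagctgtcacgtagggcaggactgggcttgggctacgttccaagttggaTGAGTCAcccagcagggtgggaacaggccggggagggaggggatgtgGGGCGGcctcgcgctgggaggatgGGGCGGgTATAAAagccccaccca
Mtmr11, chr3:96161720-96161969, plus strand: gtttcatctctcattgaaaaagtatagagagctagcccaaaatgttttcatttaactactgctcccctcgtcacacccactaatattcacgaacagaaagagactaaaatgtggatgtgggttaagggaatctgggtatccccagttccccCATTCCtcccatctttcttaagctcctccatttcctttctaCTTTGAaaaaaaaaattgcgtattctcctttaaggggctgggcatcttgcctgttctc
D17H6S56E-5, chr17:35000747-35000996, minus strand: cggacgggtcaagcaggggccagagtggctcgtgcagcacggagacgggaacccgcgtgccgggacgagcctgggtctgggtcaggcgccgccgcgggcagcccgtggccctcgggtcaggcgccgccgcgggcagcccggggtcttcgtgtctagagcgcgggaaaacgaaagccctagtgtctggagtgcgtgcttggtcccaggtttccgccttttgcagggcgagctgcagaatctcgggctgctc
Tmem54, chr4:129105280-129105529, plus strand: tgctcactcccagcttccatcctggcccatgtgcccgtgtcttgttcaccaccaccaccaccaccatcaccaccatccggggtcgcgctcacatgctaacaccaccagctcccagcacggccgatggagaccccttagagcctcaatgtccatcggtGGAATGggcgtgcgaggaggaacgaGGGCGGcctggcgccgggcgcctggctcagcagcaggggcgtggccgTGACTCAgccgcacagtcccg
The motifs were searched on both strands of 300 bases around each start. They were AP-1 (TGANTCA), found in 7.81% of all 32851 promoters of the table, TEAD (GGAATG, 14.7%), an E-box (CACGTG, 7.15%), TCF/LEF (CTTTGA, 16.0%), a GC box (GGGCGG, 35.7%), a CCAAT box (CCAAT, 37.4%) and a TATA box (TATAAA, 13.6%). An AP-1 match stood at -95 in Anxa2 and at -21 in Tmem54, a pair of genes with unlike patterns over the models. TEAD matches stood at -99 on the minus strand in Mtmr11 and at -93 in Tmem54. Anxa2 also held 3 GC boxes and a TATA box at -17, and Mtmr11 a TCF/LEF match at -58. Golm1 held 4 GC boxes, of which the pair at -19 and -15 overlap each other, with a CCAAT box at -120 and a TATA match at -185 on the minus strand. Tspan8 held a TCF/LEF match 4 bases after the table's transcript start, which lies downstream of the start of the gene's span, and none of the 7 motifs was found in the window of D17H6S56E-5. These matches describe the letters of the windows and were not related to binding.

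The deposited values are log2 values normalised with RMA, a method that corrects background, equalises the arrays and summarises the probes of a probe set. Levels are compared between arrays for 1 gene at a time and not between genes. Hepatocyte marker genes averaged between 12.62 and 13.17 on every array, so that all groups read as liver. LT tumor 3 stood apart: its root mean square distance to the LT NTL mean over all genes was 0.35, against 0.69 and 0.61 for LT tumors 1 and 2, and its distance to those other tumors was 0.58. The other 10 tumors lay 0.49 to 0.63 from the NTL mean of their model. Separation counts and the LT tumor minus NTL differences of Ly6d, D17H6S56E-5, Mtmr11, Anxa2 and Golm1 are therefore given with and without it. Some tests and counts of list genes are given both ways too. Other LT tumor differences, such as those of list genes and those against controls, include LT tumor 3. Xist, which coats the silenced X chromosome of female cells, was high in all 3 LT tumors, in 4 of 5 LT NTL and in 1 array of each control group, and low in the DEN and MYC tumors and NTL. On this measure the LT arrays, mostly high, and their 4 controls, 3 of them low, were not matched for sex as labelled, and neither was 1 of the 5 DEN controls. In such bulk tissue, more cells that express a gene and more RNA per cell cannot be told apart.

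All 7 genes were above every NTL array on each of the 5 DEN tumors, where 10.7% of all genes did so. In LT, 3 of the 7 (Ly6d, D17H6S56E-5 and Anxa2) were above NTL on all 3 tumors, against 7.4% of all genes, and in MYC 4 of the 7 (these and Mtmr11) on all 5 tumors, against 13% of all genes. In all 3 models together 3 of the 7 separated the arrays, where 1.09% of all genes did so. Without LT tumor 3 the counts were 5 of 7 in LT, with 15.9% of all genes, and 4 of 7 in all 3 models, with 2.42% of all genes. None of the 7 had all 13 tumors above all 22 NTL and control arrays (0.0956% of all genes did), and without LT tumor 3 D17H6S56E-5 and Mtmr11 did. These shares stand beside counts that the choice of the genes fixed in part, and nothing is read from them.

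**Figure D1:**
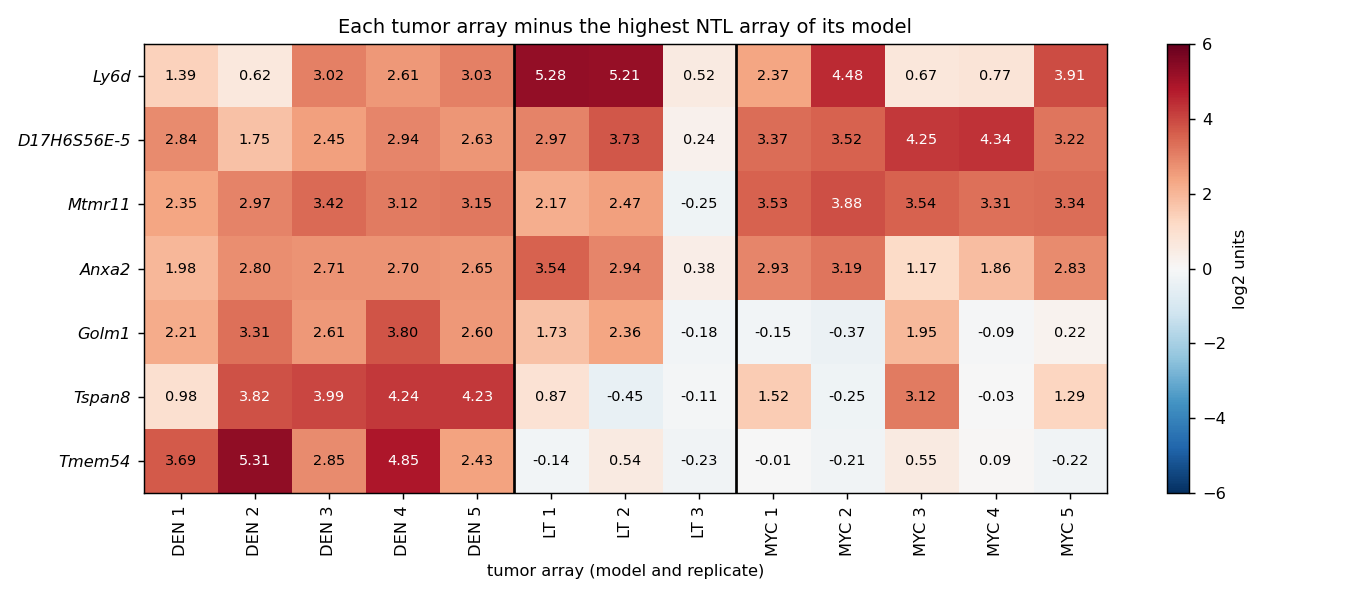
Each cell gives the log2 value of a tumor array minus the highest NTL array of the same model, for the 7 genes (rows) and 13 tumors (columns, model and replicate). Values above 0 lie beyond every NTL array. All DEN cells are above 0, LT tumor 3 lies between -0.25 and 0.52, and Tmem54 lies between -0.23 and 0.55 in LT and MYC.

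By tumor, each DEN tumor had all 7 genes above the highest DEN NTL array and also above the highest of the 22 non-tumor arrays. LT tumors 1 and 2 had 6 genes above NTL, and LT tumor 3 had 3. MYC tumors 1 to 5 had 5, 4, 7, 5 and 6 genes above MYC NTL. Some of these passes were small, such as 0.09 for Tmem54 in MYC tumor 4 and 0.22 for Golm1 in MYC tumor 5. Counted against all 22 non-tumor arrays, LT tumor 3 had 0 genes above and MYC tumor 4 had 2, whereas the other LT tumors had 5 and the other MYC tumors 4 each. The share of all genes above on each single tumor is not given. MYC has 3 NTL arrays and DEN and LT have 5 each, so the counts against NTL are not compared between models. They describe the chosen genes, and nothing is read from them.

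Ly6d, the lipid-anchored surface protein, read 10.00, 9.24, 11.63, 11.22 and 11.65 on the DEN tumors and 7.74, 8.61, 7.69, 8.30 and 7.57 on DEN NTL. The LT tumors read 12.21, 12.13 and 7.44, against 6.92, 5.93, 6.50, 6.73 and 5.82 on LT NTL. The MYC tumors read 8.64, 10.76, 6.94, 7.04 and 10.18, against 6.27, 6.18 and 5.58 on MYC NTL. The tumors were above NTL in each model without overlap, but LT tumor 3 and MYC tumors 3 and 4 were below the lowest DEN NTL array. The tumor minus NTL differences were 2.77 ± 0.73 log2 units (SE) in DEN, 4.21 ± 0.84 in LT and 2.70 ± 0.84 in MYC, or 6.80, 18.5 and 6.50 times on a linear scale. Without LT tumor 3 the LT difference was 5.79. The errors of this and the later differences come from a spread shared by all groups. LT tumors had the largest SD of all groups for Ly6d (2.73), D17H6S56E-5 (1.83), Mtmr11 (1.49), Anxa2 (1.68) and Golm1 (1.32). For these genes the errors given for LT tumors therefore understate the spread among the LT tumors. Control livers read 6.12, 5.21, 7.27, 5.88 and 5.54 in DEN and 8.13, 7.74, 7.96 and 5.92 in LT and MYC, so that 3 of the shared controls lay above MYC tumors 3 and 4. By group mean the order ran from DEN tumor (10.75 ± 1.08, SD, n = 5) and LT tumor (10.59 ± 2.73, n = 3) through MYC tumor (8.71 ± 1.75, n = 5), DEN NTL, shared controls and LT NTL to MYC NTL and DEN control. Each group overlapped the next one in that order.

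Anxa2, the membrane-binding annexin, read 9.91, 10.74, 10.65, 10.63 and 10.59 on the DEN tumors and 7.71, 7.93, 7.58, 7.57 and 7.44 on DEN NTL. It read 10.84, 10.25 and 7.68 on the LT tumors against 7.19, 6.84, 7.31, 7.12 and 7.24 on LT NTL. MYC tumors read 9.79, 10.06, 8.04, 8.72 and 9.70, against 6.87, 6.71 and 6.79 on MYC NTL. As with Ly6d, MYC tumors 3 and 4 and LT tumor 3 were the low tumors, and tumors and NTL did not overlap within a model. The differences were 2.86 ± 0.37 in DEN, 2.45 ± 0.43 in LT (3.41 without LT tumor 3) and 2.47 ± 0.43 in MYC. The DEN controls ranged from 6.99 to 7.40 and the shared controls read 8.76, 7.69, 7.71 and 7.33. Shared controls 1, 2 and 3 were thus above LT tumor 3, and shared control 1 was also above MYC tumors 3 and 4. DEN NTL and DEN control, neighbours in the order of the group means, did not overlap, whereas every other neighbouring pair did.

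D17H6S56E-5 read 9.98, 8.89, 9.59, 10.08 and 9.77 on the DEN tumors and 6.16 to 7.14 on DEN NTL. On the MYC tumors it read 9.54, 9.69, 10.42, 10.51 and 9.39, against 5.79 to 6.17 on MYC NTL. LT tumors 1 and 2 read 9.41 and 10.17 and LT tumor 3 read 6.68, against 6.04, 6.44, 6.09, 6.11 and 6.14 on LT NTL. A total of 12 of the 13 tumors lay above all 22 non-tumor arrays, LT tumor 3 being the exception. The lowest of the 12, DEN tumor 2, was 1.75 above the highest NTL array. The tumor minus NTL differences were 3.14 ± 0.37 in DEN, 2.59 ± 0.43 in LT (3.63 without LT tumor 3) and 3.93 ± 0.43 in MYC. Controls ranged from 5.53 to 6.27 in DEN and from 5.69 to 6.27 in LT and MYC. Its highest group mean was that of MYC tumors (9.91 ± 0.52, n = 5), followed by DEN tumors (9.66 ± 0.47, n = 5) and LT tumors (8.76 ± 1.83, n = 3), whose ranges overlapped.

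Mtmr11, the inactive myotubularin, read 8.67, 9.30, 9.75, 9.45 and 9.47 on the DEN tumors and 5.99 to 6.33 on DEN NTL. It read 8.32, 8.68, 8.34, 8.10 and 8.13 on the MYC tumors against 4.67, 4.45 and 4.80 on MYC NTL. LT tumors read 8.26, 8.57 and 5.85 against 5.92, 5.41, 5.92, 5.44 and 6.10 on LT NTL. LT tumor 3 lay within the NTL range, and the 12 other tumors lay above all 22 non-tumor arrays. The differences were 3.17 ± 0.34 in DEN, 1.80 ± 0.40 in LT (2.66 without LT tumor 3) and 3.68 ± 0.40 in MYC. The 5 MYC tumors were close together (SD 0.23), closer than for Ly6d (SD 1.75) or Anxa2 (SD 0.85) on the same arrays. DEN controls read 4.86, 4.67, 6.24, 4.96 and 4.94, so that control 3 was at the level of DEN NTL. In the order of the group means, the DEN, MYC and LT tumors came first and MYC NTL last, each overlapping its neighbour.

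Golm1, the Golgi protein, read 8.37, 9.48, 8.77, 9.96 and 8.76 on the DEN tumors and 5.57 to 6.16 on DEN NTL, a difference of 3.28 ± 0.35. LT tumors read 7.26, 7.90 and 5.36 against 4.95 to 5.53 on LT NTL, a difference of 1.66 ± 0.41, or 2.41 without LT tumor 3. On the MYC tumors it read 5.04, 4.83, 7.14, 5.10 and 5.42 against 5.01, 5.19 and 5.07 on MYC NTL. MYC tumor 3 was thus far above the other MYC tumors, and 3 of the 5 did not pass the highest NTL array. The MYC difference of 0.42 ± 0.41 was about as large as its error and was 0.0062 without MYC tumor 3. DEN tumors (9.07 ± 0.64, n = 5) stood above the next group, LT tumors (6.84 ± 1.32, n = 3), without overlap, and all later neighbours in the order overlapped.

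Tspan8, the tetraspanin, read 6.91, 9.75, 9.92, 10.16 and 10.15 on the DEN tumors and 5.39 to 5.93 on DEN NTL, a difference of 3.76 ± 0.47. The LT tumors read 5.45, 4.14 and 4.47 against 3.98 to 4.59 on LT NTL. MYC tumors read 5.85, 4.08, 7.45, 4.30 and 5.62 against 4.29, 4.33 and 3.86 on MYC NTL. Only LT tumor 1 and MYC tumors 1, 3 and 5 were above the NTL arrays of their model, and of these only MYC tumor 3 was also above all 22 non-tumor arrays. The differences were 0.31 ± 0.55 in LT and 1.30 ± 0.55 in MYC.

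Tmem54 read 9.32, 10.94, 8.48, 10.48 and 8.06 on the DEN tumors and 5.11 to 5.63 on DEN NTL, a difference of 4.13 ± 0.31, or 17.5 times. It read 4.16, 4.85 and 4.07 on the LT tumors against 4.12 to 4.31 on LT NTL, and 4.34, 4.13, 4.89, 4.44 and 4.13 on the MYC tumors against 4.28 to 4.35 on MYC NTL. The differences were 0.16 ± 0.36 in LT and 0.07 ± 0.36 in MYC. These values lie near the first quartile of all probe sets on an array, which ran from 4.13 to 4.24. Tmem54 was thus high in DEN tumors and at about the same low level in the LT and MYC tumors, their NTL and all controls. DEN tumors and DEN NTL were each apart from the next group in the order, and the other groups overlapped their neighbours.

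**Figure D2:**
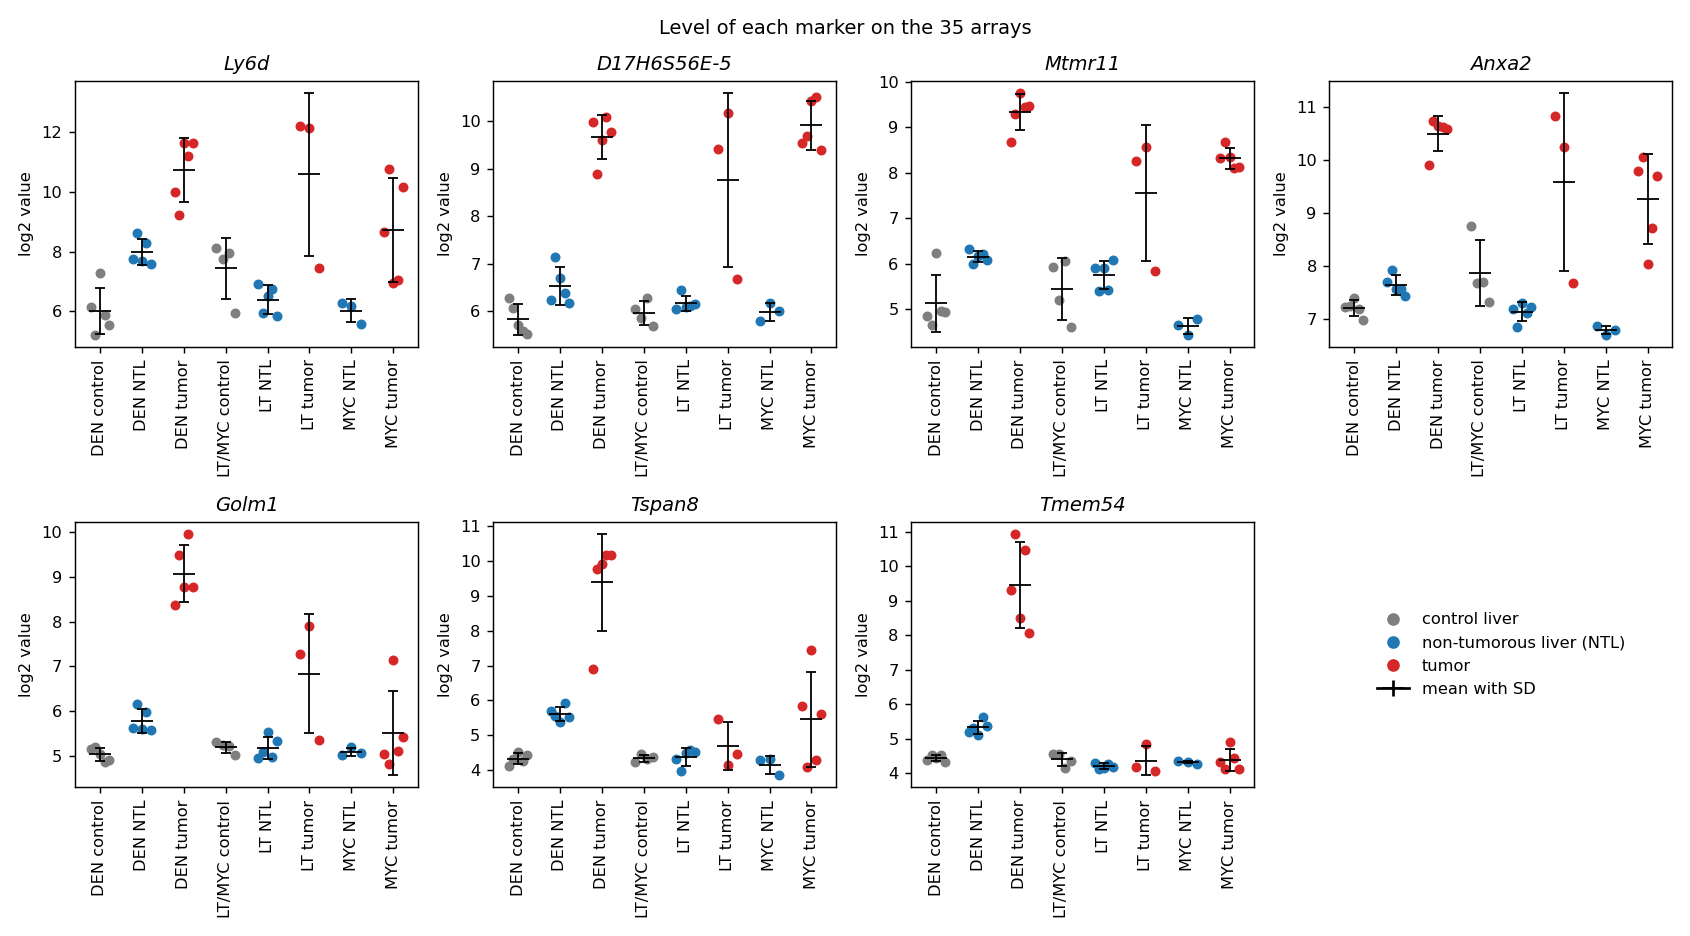
Log2 values of the 7 genes (one panel each) on the 35 arrays, by group (points, 3 to 5 arrays per group), with the group mean and SD in black. Tumors of all 3 models lie high for D17H6S56E-5 and Mtmr11 except LT tumor 3, whereas Tmem54 lies between 8.06 and 10.94 in DEN tumors and at most at 4.89 in LT and MYC tumors.

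Against control livers, which the choice of the genes did not use, the tumor differences had the same sign as against NTL except for Tmem54 in LT (-0.04 ± 0.38) and MYC (-0.02 ± 0.33). DEN tumors exceeded their controls by 3.30 ± 0.37 for Anxa2 to 5.05 ± 0.47 for Tspan8, more than they exceeded NTL for each of the 7 genes. MYC tumors exceeded the shared controls by 1.28 ± 0.77 for Ly6d and 1.39 ± 0.40 for Anxa2, less than they exceeded MYC NTL, since both genes were lower in MYC NTL than in the shared controls. LT tumors exceeded the same controls by 3.16 ± 0.88 for Ly6d and 1.72 ± 0.45 for Anxa2. The tumor arrays are those that chose the genes, so no test is given.

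Whether the markers already differ in NTL was asked by comparing NTL with control livers. In DEN, 5 of the 7 genes (Ly6d, Anxa2, Golm1, Tspan8 and Tmem54) were above the controls on every NTL array, where 2.21% of all genes did so. The NTL arrays, though not the controls, entered the choice of the genes. Tmem54 read 5.11 to 5.63 on DEN NTL and 4.33 to 4.54 on the controls, Tspan8 5.39 to 5.93 against 4.13 to 4.51, and Golm1 5.57 to 6.16 against 4.87 to 5.20. Ly6d ranged from 7.57 to 8.61 on DEN NTL and from 5.21 to 7.27 on the controls. The differences were 1.98 ± 0.73 for Ly6d, 1.29 ± 0.47 for Tspan8, 1.02 ± 0.34 for Mtmr11, 0.88 ± 0.31 for Tmem54, 0.76 ± 0.35 for Golm1, 0.69 ± 0.37 for D17H6S56E-5 and 0.44 ± 0.37 for Anxa2.

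None of these DEN differences passed limma's test in the fit over all 35 arrays, in which all groups share 1 spread and 0.197% of all genes were called. The adjusted p by limma ran from 0.293 for Mtmr11 to 0.772 for Anxa2, and 5 of the 7 had an unadjusted p under 0.05, as had 9.55% of all genes. When the 5 DEN NTL and 5 control arrays alone were fitted with limma, 4 of the 7 and 0.972% of all genes were called. Each of the 4 had every NTL array above every control, and they were Tspan8 (adjusted p = 0.000107), Tmem54 (0.000925), Golm1 (0.0139) and Ly6d (0.0212). Over all alternatives the limma adjusted p of these 4 ran up to 0.609 for Tspan8, 0.594 for Tmem54, 0.738 for Golm1 and 0.601 for Ly6d. An exact two-sided permutation test of each gene gave p = 0.00794, the smallest that 5 against 5 arrays allow, for Ly6d, Anxa2, Golm1, Tspan8 and Tmem54, with 0.0238 for D17H6S56E-5 and 0.0397 for Mtmr11. These permutation p are not adjusted over genes, and 15.3% of all genes had one under 0.05. The calls of these 4 genes thus changed with the arrays from which the spread was estimated.

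In LT and MYC the NTL differences ran the other way for some genes. Anxa2 was lower on all 5 LT NTL arrays (6.84 to 7.31) and on all 3 MYC NTL arrays (6.71 to 6.87) than on the 4 shared controls (7.33 to 8.76), with differences of -0.73 ± 0.40 and -1.08 ± 0.45. Of all genes, 3.77% were below the controls on every LT NTL array and 12.3% on every MYC NTL array, and Anxa2 was the only one of the 7 in each. Ly6d differed from the controls by -1.06 ± 0.77 in LT and -1.42 ± 0.88 in MYC, with overlap at shared control 4 (5.92). In the limma fit none of the 7 was called in LT, with 2.41% of all genes called, or in MYC, with 3.83% of all genes called. At an unadjusted p under 0.05 the counts were 0 in LT, with 15.6% of all genes, and 1 in MYC, which was Anxa2, with 16.4% of all genes. The adjusted p of Anxa2 was 0.382 in LT and 0.202 in MYC, and the latter became 0.046 when LT tumor 3 was left out of the shared fit, which called 4.79% of all genes. The exact permutation p of Anxa2 was 0.00794 in LT, the smallest for 5 against 4 arrays, and 0.0571 in MYC, and 17.1% and 12.2% of all genes had one under 0.05. The NTL arrays entered the choice of the genes, which favours low NTL values, so these tests are not independent of it. Between LT NTL and its controls the mix of high and low Xist also differed, and with a term for Xist 174 genes were called in place of 454. For Golm1, Tspan8 and Tmem54 the LT and MYC differences lay between -0.20 and 0.04, all smaller than their errors.

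The NTL minus control differences of DEN exceeded those of the other models by 3.04 ± 1.06 against LT and 3.40 ± 1.14 against MYC for Ly6d, and by 1.84 ± 0.54 against MYC for Mtmr11. These comparisons were added after the values had been seen. None passed in the limma fit over all arrays (adjusted p = 0.0935, 0.0997 and 0.0532), in which 4.47% of all genes were called against LT and 3.26% against MYC, although every NTL array of Ly6d lay above its control mean in DEN and below it in LT and MYC. Without LT tumor 3 the adjusted p were 0.0313, 0.0275 and 0.00423, and 5.89% and 4.38% of all genes were called. When only the groups compared were fitted with limma, the adjusted p were 0.0037, 0.00271 and 0.0114. The share of all genes called in that fit is not given here. The LT and MYC differences share the 4 control arrays, so they are not independent of each other. Control livers of the experiments were compared directly as well. Ly6d was 1.43 ± 0.77 higher and Anxa2 0.66 ± 0.40 higher in the shared LT and MYC controls than in DEN controls, and limma called none of the 7 (lowest adjusted p = 0.445 for Ly6d, with 2.73% of all genes called, and 0 at an unadjusted p under 0.05, against 13.3% of all genes). The exact permutation p was 0.0556 for Ly6d and 0.0159 for Anxa2, with 3 of the 4 shared controls above every DEN control for each gene, and 15.9% of all genes had one under 0.05. Age and experiment cannot be told apart in that comparison.

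**Figure D3:**
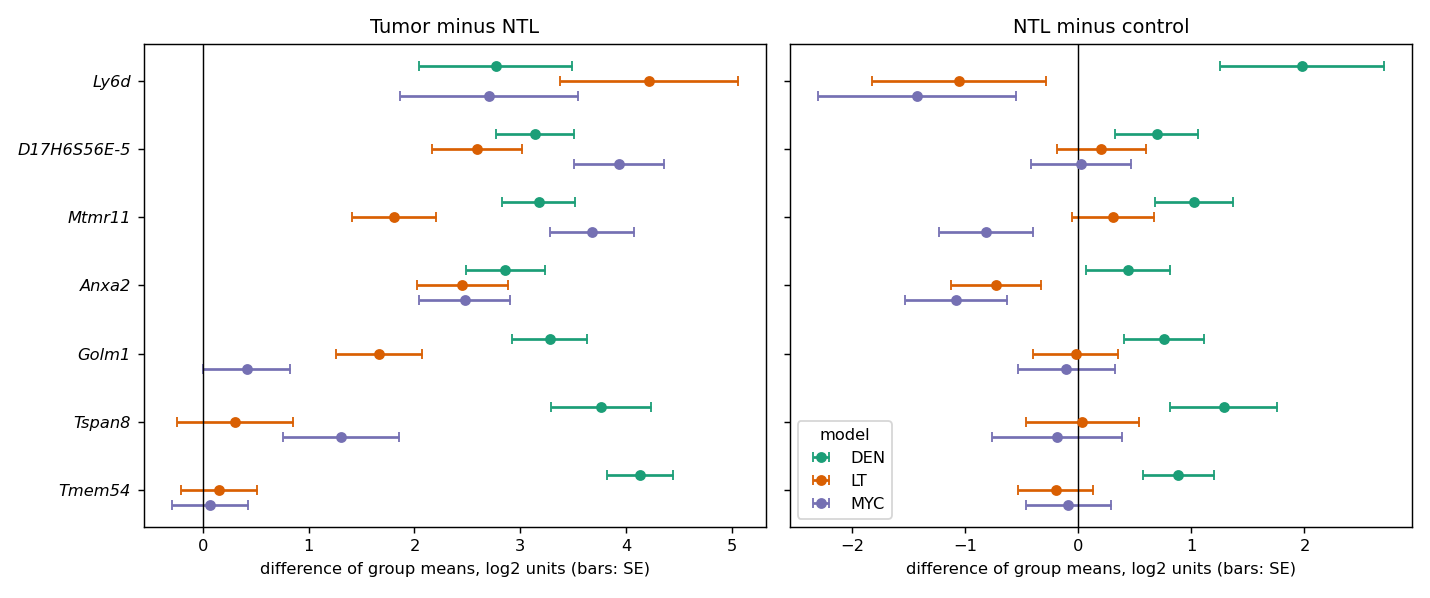
Differences of group means with their standard errors from the fit over all arrays, tumor minus NTL (left) and NTL minus control (right), for the 7 genes and 3 models. On the right, all 7 DEN points lie above 0, from 0.44 to 1.98, whereas Ly6d and Anxa2 lie below 0 in LT and MYC.

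Among themselves the genes were correlated to different degrees over the 35 arrays. Pearson correlations among Ly6d, D17H6S56E-5, Mtmr11 and Anxa2 ran from 0.76 to 0.93, and those among Golm1, Tspan8 and Tmem54 from 0.88 to 0.89. Correlations of the first 4 genes with the other 3 ran from 0.49 (D17H6S56E-5 with Tmem54) to 0.77 (Mtmr11 with Golm1), which overlaps the lower end of the first range, 0.76 for Ly6d with D17H6S56E-5. These are descriptions over arrays that share the step from NTL to tumor by which the genes were chosen. Single tumors differed in which genes were high. MYC tumor 3 had the highest Golm1 (7.14) and Tspan8 (7.45) of the MYC tumors together with the lowest Ly6d (6.94) and Anxa2 (8.04), while D17H6S56E-5 (10.42) and Mtmr11 (8.34) were each exceeded by only 1 other MYC tumor. DEN tumor 1 was the lowest DEN tumor for Anxa2 (9.91), Mtmr11 (8.67), Golm1 (8.37) and Tspan8 (6.91) but not for Ly6d (10.00), D17H6S56E-5 (9.98) or Tmem54 (9.32).

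Tumors whose identifiers share a stem were not alike in the same degree. DEN tumors 1 and 4 differed by 3.25 for Tspan8, 1.59 for Golm1, 1.22 for Ly6d and 1.16 for Tmem54, but by 0.10 for D17H6S56E-5. DEN tumors 3 and 5 differed by at most 0.42 for any of the 7. LT tumors 1 and 2 differed by 1.31 for Tspan8 and by 0.07 for Ly6d. The standard errors given here treat each array as an animal.

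The genes most like each member over the 35 arrays were named by Pearson correlation. Predicted genes, clone names, histone genes, olfactory receptor genes and pseudogenes were left out, so genes of these kinds may correlate as highly. Beside Anxa2 (0.92), Ly6d was most like Tnfrsf23, a decoy receptor of the TNF family (0.91), and Uap1l1 (0.89). Anxa2 was most like Uap1l1 (0.95), the tropomyosin gene Tpm1 (0.95) and Samd4 (0.94), and Mtmr11 was most like Tpm1 (0.95), the lamin A gene Lmna (0.95) and Rhbdf2 (0.94). D17H6S56E-5 was most like Stmn1, encoding the microtubule-destabilising stathmin (0.95), Sgo2a, a protector of centromere cohesion (0.95), and Ccdc120 (0.95). Golm1 was most like the basement membrane gene Nid1 (0.96), Rhoc (0.95) and Abi2 (0.95). Tspan8 was most like Clmp, Uggt2 and Miox (0.95 to 0.96), and Tmem54 was most like Hid1 (0.98), Gldn (0.97) and Msantd3 (0.96). Gldn, for example, differed between tumor and NTL by 4.48 ± 0.13 in DEN, 0.55 ± 0.15 in LT and -0.05 ± 0.15 in MYC, the order seen for Tmem54.

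When all genes were ranked by the smallest of their 3 tumor minus NTL differences, Ly6d stood at 1 (2.70), D17H6S56E-5 at 2 (2.59), Anxa2 at 4 (2.45) and Mtmr11 at 12 (1.80). Golm1 stood at 482 (0.42), Tspan8 at 754 (0.31) and Tmem54 at 2112 (0.07), so that many other genes ranked above them. The choice of the member genes used these same differences, so their ranks are descriptions and nothing is read from them. The other genes among the first 12 were Esm1, a secreted proteoglycan of endothelium (2.46 in LT, its smallest), Mir675, Plat, Scd2, Sult1e1, Slc1a4, Mki67 and Ccnb2. Of these, Esm1 and Mki67 had every tumor above every NTL array in each model.

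Genes of the families of the 7 were counted with limma over all genes, leaving the 7 out. Of all 18820 genes, limma called 15.6% higher in DEN tumors than in NTL, 10.7% in LT and 11.5% in MYC. The share of all genes called lower is not given here. The counts of lower genes in this and the later lists are therefore descriptions only. Of 11 other annexins, 5 were called higher and 1 lower in DEN tumors than in NTL, 6 and 1 in LT, and 4 and 1 in MYC. Their median change was 0.37, 0.52 and 0.32, beside -0.04, -0.03 and -0.03 over all genes. The LT count of 6 became 2 without LT tumor 1 and 0 when LT tumors and NTL alone were fitted. Anxa5, which binds phosphatidylserine, rose by 0.77 ± 0.16 in DEN, 0.98 ± 0.19 in LT and 0.97 ± 0.19 in MYC (limma adjusted p = 0.000422, 0.000381 and 0.000311), with every tumor above every NTL array in each model. Anxa3 rose by 0.66 ± 0.19, 0.99 ± 0.22 and 0.72 ± 0.22, also without overlap, and Anxa9 by 1.62 ± 0.17, 0.56 ± 0.19 and 2.03 ± 0.19. Anxa1 rose by 0.77 ± 0.24 in DEN and 1.39 ± 0.28 in LT, and differed by 0.37 ± 0.28 in MYC, which was not called.

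Of 12 genes for partners of annexin A2 and the plasminogen system, 7 were called higher and 0 lower in DEN, 10 and 1 in LT, and 4 and 1 in MYC. The median changes were 0.57, 0.90 and 0.36. The LT count of 10 became 5 without LT tumor 1 and 1 when LT tumors and NTL alone were fitted. S100a11, a calcium-binding partner of annexins, rose by 1.54 ± 0.28, 1.76 ± 0.32 and 1.94 ± 0.32 (limma adjusted p = 6.13e-05, 0.000263 and 5.66e-05), with all tumors above all NTL arrays in each model. Tgm2, a transglutaminase, rose by 0.95 ± 0.19, 1.02 ± 0.22 and 1.13 ± 0.22, likewise without overlap. Plat, the tissue plasminogen activator, rose by 1.97 ± 0.58, 2.32 ± 0.67 and 2.36 ± 0.67. S100a10, the partner that forms a complex with annexin A2, rose by 0.90 ± 0.26 in LT and differed by -0.43 ± 0.23 in DEN and 0.57 ± 0.26 in MYC, where it was not called. S100a6 rose by 1.73 ± 0.34 in LT and was not called in DEN (0.64 ± 0.29) or MYC (0.33 ± 0.34), and the models were not tested against each other.

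Of 29 other members of the Ly6 and urokinase receptor family, 3 were called higher and 3 lower in DEN, 3 and 4 in LT, and 1 and 5 in MYC, with medians of -0.05, -0.03 and -0.11. Plaur, the urokinase receptor, rose by 1.04 ± 0.17 in DEN and 0.91 ± 0.19 in LT and differed by 0.39 ± 0.19 in MYC, which was not called. Cd59b, an inhibitor of complement, fell by 1.51 ± 0.21, 0.82 ± 0.24 and 1.00 ± 0.24. Lynx1 rose by 0.97 ± 0.15 in DEN and 0.85 ± 0.17 in LT, and Bambi, a decoy receptor of the TGF-beta family, rose by 0.46 ± 0.13 in DEN and fell by 0.42 ± 0.15 in LT and 0.63 ± 0.15 in MYC. The share of the family called higher was near that of all genes in LT and below it in DEN and MYC. In each group 7 to 10 of the 29 genes averaged below the first quartile of the arrays, so nothing is read from these shares.

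Of 29 other tetraspanins, 8 were called higher and 3 lower in DEN, 13 and 1 in LT, and 2 and 3 in MYC, with medians of 0.12, 0.40 and -0.09. Cd9 rose by 1.71 ± 0.22, 1.5 ± 0.26 and 1.56 ± 0.26 (limma adjusted p = 6.77e-07, 0.000178 and 6.22e-05), with all tumors above all NTL arrays in each model. Cd63, a tetraspanin of late endosomes, rose by 2.58 ± 0.31 in DEN and 1.61 ± 0.36 in LT and differed by 0.59 ± 0.36 in MYC, which was not called. Tspan15 rose by 1.28 ± 0.16 and 1.09 ± 0.18, and Tspan6 by 0.81 ± 0.28 and 2.27 ± 0.33, in DEN and LT. Cd9 also marks monocyte-derived cells and stands in that list too.

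Of 12 other myotubularins, 4 were called higher and 3 lower in DEN, 0 and 2 in LT, and 2 and 1 in MYC, with medians between 0.05 and 0.09. Mtmr4 fell by 0.67 ± 0.10 in DEN and 0.55 ± 0.12 in LT and rose by 0.41 ± 0.12 in MYC. Mtmr12, another member without catalytic activity, rose by 0.43 ± 0.12 in DEN. Mtmr10 fell by 0.25 ± 0.08 in DEN and 0.38 ± 0.09 in MYC, and Mtmr2 rose by 0.29 ± 0.08 in DEN and fell by 0.27 ± 0.09 in LT. Of 21 other Golgi genes, 6 were called higher and 1 lower in DEN, 0 and 2 in LT, and 3 and 1 in MYC, with medians of 0.11, -0.12 and 0.00. St6gal1, a sialyltransferase, rose by 1.14 ± 0.30 in DEN and differed by -0.90 ± 0.34 in LT, which was not called. Gcc2 rose by 0.29 ± 0.09 in DEN and 0.34 ± 0.11 in MYC, Blzf1 by 0.34 ± 0.12 in DEN, and Golga4 fell by 0.29 ± 0.08 in LT and rose by 0.29 ± 0.08 in MYC.

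Of 22 other genes known as markers of liver tumors, 14 were called higher in DEN, 9 in LT and 7 in MYC, and 0 lower, with medians of 1.48, 1.00 and 0.57. Mki67, a marker of dividing cells, rose by 2.11 ± 0.36, 1.87 ± 0.41 and 3.04 ± 0.41, and Top2a by 1.60 ± 0.28, 1.34 ± 0.32 and 2.38 ± 0.32, both with every tumor above every NTL array in each model. Scd2, a fatty acid desaturase, rose by 2.98 ± 0.35, 1.90 ± 0.41 and 1.91 ± 0.41. Prom1, the gene of CD133, rose by 3.49 ± 0.44 in DEN and 1.84 ± 0.51 in LT and differed by 0.32 ± 0.51 in MYC. Vil1 rose by 2.78 ± 0.70 in DEN. This list was written with earlier results of these data known and is no independent evidence.

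**Figure D4:**
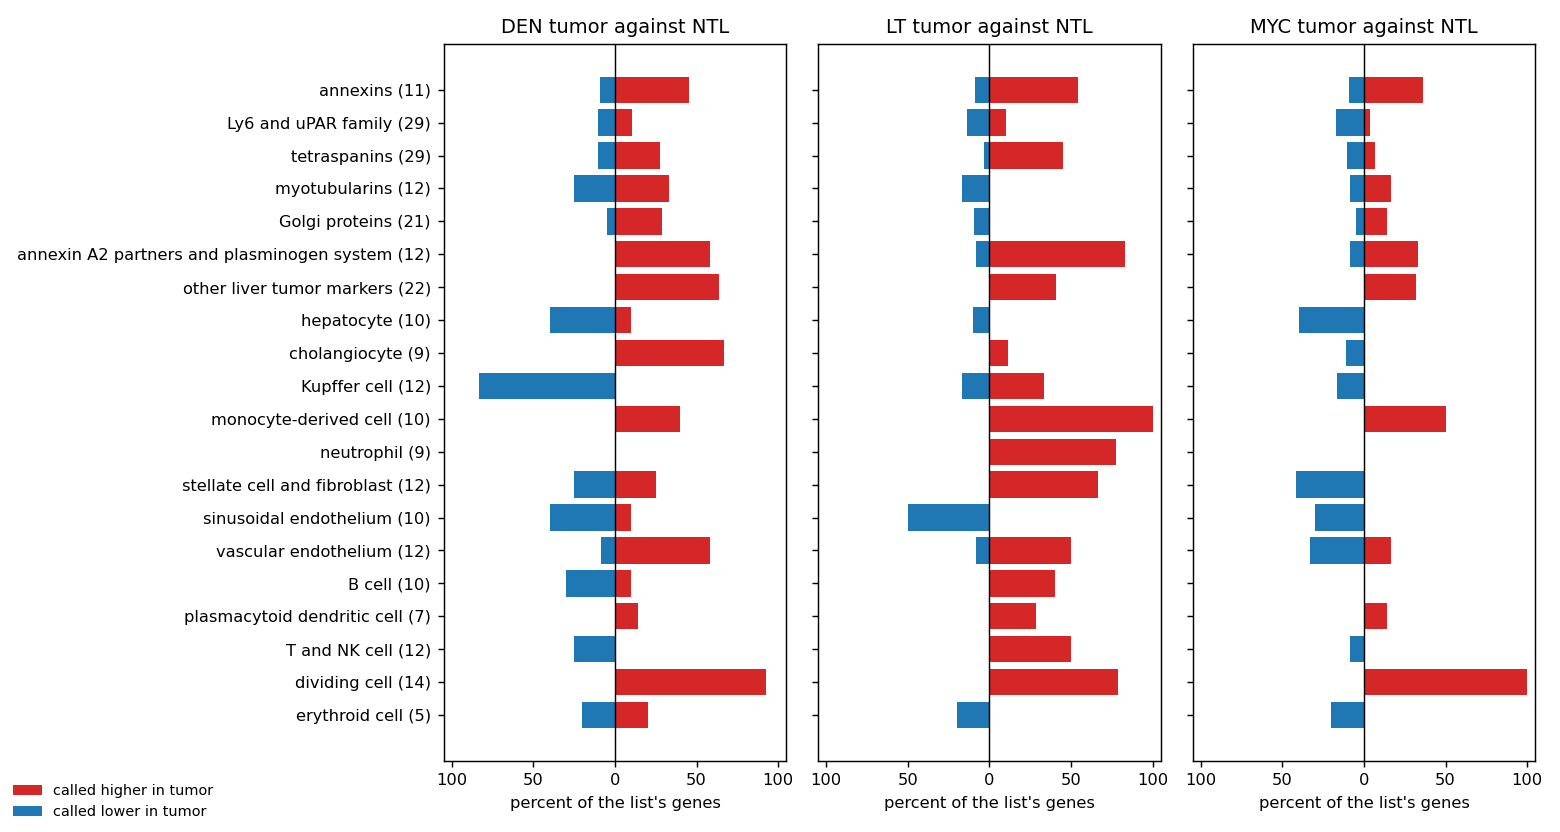
Percent of the measured genes of each list (number in parentheses, the 7 genes left out) that limma called higher (red, to the right) or lower (blue, to the left) in tumors than in NTL, by model. Dividing-cell genes are higher in all models (13, 11 and 14 of 14), and Kupffer cell genes are lower in DEN (10 of 12).

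Cell type markers also differed between tumors and NTL, in directions that varied by list and model, and their part in these results was not tested. Of 14 dividing-cell genes, 13 were called higher in DEN, 11 in LT and 14 in MYC. Their mean per array rose from 5.03 to 5.55 on DEN NTL to 5.64 to 7.65 on DEN tumors, from 4.91 to 5.14 to 5.34 to 6.91 in LT, and from 4.96 to 5.14 to 6.85 to 8.30 in MYC. LT tumor 3, the lowest LT tumor for each of the 7 genes but Tspan8, had the lowest dividing-cell mean of the LT tumors (5.34). In contrast, MYC tumor 3, low for Ly6d and Anxa2, had the highest dividing-cell mean of all tumors (8.30). Besides Mki67 and Top2a, the genes Ccna2, Bub1, Bub1b, Plk1, Aurkb, Kif11 and Nuf2 had every tumor above every NTL array in each model.

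Of 12 Kupffer cell genes, 10 were called lower in DEN, 4 higher and 2 lower in LT, and 2 lower in MYC. Their mean was 8.59 to 9.54 on DEN NTL and 7.26 to 8.21 on DEN tumors, 8.25 to 8.85 and 7.73 to 9.33 in LT, and 8.11 to 8.33 and 7.13 to 8.27 in MYC. Cd163, Clec4f, Folr2 and Timd4 differed by -2.69 ± 0.37, -1.96 ± 0.41, -1.46 ± 0.27 and -1.46 ± 0.31 in DEN. Of 10 genes of monocyte-derived cells, 4 were called higher in DEN, 10 in LT and 5 in MYC, with means of 6.15 to 6.71 on DEN NTL and 6.83 to 7.22 on DEN tumors. In LT their mean was 5.95 to 6.39 on NTL and 7.09 to 8.51 on tumors, and in MYC 5.79 to 5.82 and 6.27 to 7.0. Gpnmb rose by 2.24 ± 0.72 in LT and 3.15 ± 0.72 in MYC, Lgals3 by 1.88 ± 0.32 and 1.23 ± 0.32, and Cx3cr1 by 0.81 ± 0.23, 1.56 ± 0.27 and 0.73 ± 0.27 in the 3 models.

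Of 9 cholangiocyte genes, 6 were called higher in DEN, 1 in LT, and 0 in MYC, where 1 was lower. Their mean was 5.62 to 5.80 on DEN NTL and 6.46 to 6.94 on DEN tumors, and Cftr was below the first quartile of the arrays in every group. Beside Prom1, Cdh1 rose by 2.76 ± 0.61 (and fell by 2.58 ± 0.70 in MYC), Sox9 by 1.93 ± 0.24 and Epcam by 0.79 ± 0.24 in DEN. Of 12 vascular endothelial genes, 7 were called higher and 1 lower in DEN, 6 and 1 in LT, and 2 and 4 in MYC, while of 10 sinusoidal genes 1 and 4, 0 and 5, and 0 and 3 were called. Esm1 rose by 2.66 ± 0.30, 2.46 ± 0.34 and 2.84 ± 0.34 and Cd34 by 2.28 ± 0.33, 2.32 ± 0.39 and 1.5 ± 0.39, both with every tumor above every NTL array in each model. Emcn rose by 1.46 ± 0.27 and 1.41 ± 0.31 in DEN and LT, and Vwf by 1.45 ± 0.30 in LT. Of the sinusoidal genes, Dnase1l3 fell by 1.10 ± 0.33 in DEN and 1.83 ± 0.38 in LT, Clec4g by 1.90 ± 0.50 in LT, and Oit3 by 0.83 ± 0.32, 1.32 ± 0.37 and 1.04 ± 0.37.

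Of 12 stellate cell and fibroblast genes, 3 were called higher and 3 lower in DEN, 8 and 0 in LT, and 0 and 5 in MYC. Acta2 rose by 1.77 ± 0.46 in DEN and 2.57 ± 0.53 in LT, Col1a1 by 0.84 ± 0.32 and 2.12 ± 0.38, and Lum fell by 0.83 ± 0.29 in DEN and 1.37 ± 0.33 in MYC and rose by 1.41 ± 0.33 in LT. Of 10 hepatocyte genes, 1 was higher and 4 lower in DEN, 0 and 1 in LT, and 0 and 4 in MYC, with Pck1 falling by 0.77 ± 0.25 in DEN and 1.31 ± 0.29 in MYC. Lymphoid and neutrophil genes were called higher in LT for 4 of 10 B cell genes, 6 of 12 T and NK cell genes and 7 of 9 neutrophil genes. Without LT tumor 1 these counts were 2, 1 and 3, without LT tumor 2 they were 9, 8 and 6, and with LT tumors and NTL fitted alone they were 0, 0 and 1. In DEN 1 B cell gene was higher and 3 were lower, and 3 T and NK cell genes were lower. In MYC only 1 of these genes passed, a T cell gene that was lower (Cd4, by 0.80 ± 0.19). Ms4a1, a B cell gene, rose by 1.35 ± 0.29 and Csf3r, a neutrophil gene, by 0.89 ± 0.17 in LT. LT tumor 3 had the highest B cell mean of all tumors (6.51), above the LT NTL range of 5.13 to 5.43. Of 7 plasmacytoid dendritic cell genes 1, 2 and 1 were higher in the 3 models, and of 5 erythroid genes 1 was higher and 1 lower in DEN, with 1 lower in LT and in MYC. Among them Tcf4 rose by 0.82 ± 0.15 in DEN and 0.73 ± 0.17 in LT, and Klf1 fell by 0.92 ± 0.21 in LT and 1.07 ± 0.21 in MYC.

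The LT counts rest on few tumors. The count of 8 stellate cell and fibroblast genes became 4 without LT tumor 1, and that of 5 lower sinusoidal genes became 2 and 1 without LT tumors 1 and 2. Over the 256 measured genes of all lists, 92 were called higher and 21 lower in LT. Without LT tumor 1 the counts were 48 and 6, without LT tumor 2 they were 87 and 6, and without LT tumor 3 they were 97 and 30. When LT tumors and NTL alone were fitted, 22 were called higher and 1 lower. Called higher in that fit were 5 tetraspanins, 4 other liver tumor markers, 4 dividing-cell genes, 7 genes of monocyte-derived cells and 0 stellate cell and fibroblast genes. Among the dividing-cell genes the LT count of 11 became 3 without LT tumor 2, 7 without LT tumor 1 and 13 without LT tumor 3, and among the partners of annexin A2 the count of 10 became 5 without LT tumor 1. In DEN 78 were higher and 40 lower, and in MYC 40 were higher and 33 lower, the latter 21 without MYC NTL replicate 2.

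Genes next to the 7 on their chromosomes were counted in the same way. Of 28 neighbours, the nearest 2 measured genes on each side, 5 were called higher and 1 lower in DEN, 3 and 1 in LT, and 4 and 4 in MYC. The shares called higher, 17.9%, 10.7% and 14.3%, were near the 15.6%, 10.7% and 11.5% of all genes. A total of 2 neighbours were higher in all 3 models, where 1.77% of all genes were. These were Vars, encoding a valine tRNA ligase next to D17H6S56E-5 (0.60 ± 0.08, 0.31 ± 0.10 and 0.58 ± 0.10), and Otud7b next to Mtmr11 (0.37 ± 0.12, 0.41 ± 0.14 and 0.54 ± 0.14). Both changes were smaller than those of the member beside them. Lynx1, a family member next to Ly6d, was among the genes higher in DEN and LT. Lgr5, a receptor of the Wnt pathway next to Tspan8, differed by 0.63 ± 0.75, 1.15 ± 0.86 and 1.48 ± 0.86 and was not called.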

How the data were processed

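The deposited values were log2 intensities that the authors made with RMA, per the submitters' processing notes, and the software version is not given in the sources used here. The table held 35556 probe sets on 35 arrays. For each of 18820 genes the brightest probe set with a single symbol was used, without a filter on low values. Group means were fitted over all 35 arrays with limma 3.58.1 in R 4.3.3 (lmFit, eBayes, Benjamini-Hochberg over all genes, called at an adjusted p under 0.05), after the fit had been tested on simulated data. Exact two-sided permutation tests were added for NTL against control. The p-values treat each array as an animal, and where tumors share a mouse they measure spread between samples. Alternatives were another choice of probe set, centring, filter, fit and set of arrays.

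The 7 genes and the 20 gene lists were chosen with earlier results of these data known. The text names the 7 genes, up to 4 genes per list with the largest mean absolute change and list genes whose tumors all lie above NTL in 3 models. It also names the first 12 genes by smallest change, the neighbours of each member and its 3 most correlated genes. Predicted, clone-named, histone and olfactory receptor genes and pseudogenes were not eligible for the first 12 or the most correlated. S100a10 was named after its values were seen, as the partner of annexin A2. Promoter sequences come from RefSeq, GRCm38.p6. The precision is limited by the number of arrays.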

Additional observations from a re-analysis of the deposited data

Results flagged for a closer look

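Single arrays stood apart from the other arrays of their group in 5 of 42 combinations of gene and group with 4 or 5 arrays, as judged by the gap to the nearest array over the range of the group. Chance gives such a gap in about 1 in 20 groups. They were LT NTL replicate 2 for D17H6S56E-5 (6.44, the highest of its group), DEN control 3 for Mtmr11 (6.24, the highest), DEN tumor 1 for Anxa2 (9.91, the lowest) and for Tspan8 (6.91, the lowest), and MYC tumor 3 for Golm1 (7.14, the highest).

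The NTL minus control differences of several genes had opposite signs in DEN and in another model on every NTL array, taken against the mean of the controls. Some of the negative differences were smaller than their errors. In MYC these were Golm1 (-0.11 ± 0.43), Tspan8 (-0.19 ± 0.57) and Tmem54 (-0.09 ± 0.38), and in LT Tmem54 (-0.20 ± 0.33). The difference between the models was 3.04 for Ly6d and 1.17 for Anxa2 against LT, with 1.08 for Tmem54. Against MYC it was 3.40 for Ly6d, 1.84 for Mtmr11, 1.52 for Anxa2, 0.86 for Golm1, 1.47 for Tspan8 and 0.97 for Tmem54. In the limma fit over all arrays none of these passed, with adjusted p between 0.0532 (Mtmr11) and 0.478 (Golm1). When only the groups compared were fitted with limma, each of them passed. The adjusted p then ran from 5.69e-05 (Tspan8 against MYC) to 0.0114 (Mtmr11 against MYC). The share of all genes called in that fit is not given here, so passing is not read as a trait of these genes. The calls thus changed with the arrays from which the spread was estimated. These comparisons were picked for their opposite signs, so a test of them is not independent of that choice.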

How the results depend on the processing

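No member was called in NTL against control over all arrays, so a reversal of a called member could not occur there. The tumor minus NTL differences of the members kept their sign over the alternatives, except those of Tmem54 in LT and MYC and Tspan8 in LT. The signs of called list genes were not compared between alternatives. Members that were at least 2-fold higher in tumors numbered 7, 5 and 5 in DEN, LT and MYC, and with single arrays left out 7, 5 and 4 to 5. The choice of the genes fixed these counts in part, the share of all genes is not given, and nothing is read from them. Over the alternatives the tumor minus NTL difference of Tmem54 ran from -0.09 to 0.30 in LT and from -0.06 to 0.13 in MYC, and that of Tspan8 in LT from -0.08 to 0.58. With the replicate block (replicate number as a term in the fit), no call of a member changed: 0 members were called in NTL against control in each model, and 38, 421 and 703 genes in DEN, LT and MYC. The numbers do not pair the arrays: same-numbered deviations from the group means correlated above 0.1 in 6 of 23 pairs.

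When only the groups compared were fitted, 183 genes and 4 members were called in DEN NTL against control and 1537 genes in MYC, and list genes called in LT fell to 22 higher and 1 lower. With arrays of a shared stem averaged, 74 genes were called in DEN NTL against control and 7 list genes were lower in LT. The term for Xist gave 174 genes in LT NTL against control. Unadjusted exact permutation tests gave p under 0.05 for 7 members in DEN NTL, 1 in LT NTL and 1 between the controls, and for 15.3%, 17.1% and 15.9% of all genes. Leaving out single arrays, genes called in NTL against control ran from 26 to 59 in DEN (59 without LT tumor 3), 160 to 586 in LT, 299 to 902 in MYC and 284 to 647 between the controls. The LT count was 160 and 234 without shared controls 1 and 2, and 218, 266 and 202 without LT NTL 1, 3 and 5. The MYC count was 466 and 454 without shared controls 1 and 3, and 299, 362 and 402 without MYC NTL 1, 2 and 3. Between the controls it was 321 without DEN control 2, and 284 and 314 without shared controls 1 and 2. The cause was not tested. Members called in MYC NTL ran from 0 to 1 (Anxa2, without LT tumor 3). List genes called ran from 48 to 97 higher and 6 to 30 lower in LT and from 21 to 33 lower in MYC. Members with every LT tumor above NTL ran from 3 to 5, and those with all tumors above all other arrays from 0 to 2.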
